A study of Homo sapiens with 24 samples.

Results

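ARPE-19 cells given siRNA against Nrf2 were compared with ARPE-19 cells given a scrambled siRNA, across every gene whose level averaged 1 TPM or more in these 6 samples. TPM is a transcript level scaled for transcript length and library size. This rule kept 13867 of the 24053 gene identifiers in the deposited table. ARPE-19 is an established human cell line from the retinal pigment epithelium, the pigmented cell layer behind the photoreceptors. The groups used here were Nrf2 siRNA, scramble, a double siRNA group given Nrf2 and Pink1 siRNAs, and Pink1 siRNA, with 3 biological replicates each and 2 technical replicates of each biological sample. The series' design describes siRNA treatment, while the sample labels call the treated groups knockouts or knockdowns; no dose, no time from transfection and no number of siRNA sequences is given. The growth protocol of all groups describes a confluent culture scratched with a pipette tip and kept for 24 h, and leaves unsaid if RNA was taken from scratched wells. What the biological replicates are (separate transfections, passages or days) is not stated. The p-values set each difference against the spread between replicates within all of these groups, so what kind of variation that spread covers is unknown. Sequencing depth is not given by TPM values.

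NRF2, the protein made from NFE2L2, is a transcription factor that is kept low by KEAP1, an adaptor that hands it to a CUL3 ubiquitin ligase. Oxidants and electrophiles block KEAP1, and NRF2 then binds antioxidant response elements together with a small MAF protein and switches on genes for quinone reduction, glutathione and thioredoxin use, NADPH production and iron storage. Retinal pigment epithelium lives with high oxygen and light, and its NRF2 activity is studied in connection with age-related macular degeneration.

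The samples expressed the genes of the labelled cell type in part. Of 10 markers of retinal pigment epithelium, 9 had a mean over 1 TPM, among them MITF, OTX2, KRT8 and KRT18. RPE65, the retinoid isomerase of the mature tissue, was under 1 TPM. TYR, another of the 9, was over 1 TPM in the Nrf2 siRNA samples and under it in every scramble sample. Markers of other cell types were only partly covered: 2 of 10 blood, 3 of 6 endothelial and 5 of 10 neural and photoreceptor markers had values here. Among those with values only CD68, SYT1 and MBP were over 1 TPM, and the 3 endothelial markers summed to at most 1.51 TPM. A single unnamed identifier, ENSG00000226958, held 29.9 to 38.6% of all TPM in the Nrf2 siRNA samples and 32.4 to 36.4% in the scramble samples, which lowers every other gene's TPM in proportion. In double siRNA replicates 1, 2 and 3 it held 41.4, 29.4 and 15.5%, and in Pink1 siRNA replicates 1, 2 and 3 it held 35.5, 32.3 and 24.9%. Of the 6 compared samples it was highest in Nrf2 siRNA replicate 2, which also stood apart in several gene groups described later. Pearson's r of log2(TPM + 1) over 4942 well expressed genes was 0.932 to 0.963 within groups and 0.890 to 0.961 between groups.

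NFE2L2 (ENSG00000116044), the targeted gene, was at 25, 11.1 and 23.9 TPM in the Nrf2 siRNA samples, against 89.2, 74.3 and 78.5 TPM in the scramble samples. The groups did not overlap, and the Nrf2 siRNA mean of 20.03 ± 7.7 TPM was 24.8% of the scramble mean of 80.7 ± 7.7 TPM (SD, n = 3 each). On the log2(TPM + 1) scale NFE2L2 fell by 2.03 (SE 0.25, limma adjusted p = 0.00496). The call held in 4 of the 6 fits that left out 1 sample; the adjusted p was 0.0557 without scramble replicate 1 and 0.0626 without scramble replicate 3. PINK1, the mitochondrial kinase targeted in the other groups, had 66.6, 50.7 and 54.3 TPM in the Nrf2 siRNA samples, against 53.9, 57.7 and 55.8 TPM in scramble (adjusted p = 0.971).

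Across the 13867 genes, 46 passed a Benjamini-Hochberg adjusted p of 0.05 in limma's fit: 30 were higher (0.216% of the genes tested) and 16 were lower (0.115%) in Nrf2 siRNA cells. The fitted difference was at least 2-fold for 30 of the 46. In all 46 the 3 Nrf2 siRNA samples lay outside the range of the 3 scramble samples; over all genes tested this held for 13.6% in the higher and 9.31% in the lower direction. The number of calls was sensitive to single samples: 5 of the 46 genes (MMP2, IGFBP5, SCHIP1, SCG2 and NQO1) were called in every fit that left out 1 of the 6 samples, and 24 were called in none of them. The median log2 difference of all genes tested was 0.02, and between -0.01 and 0.05 under other scalings and without any 1 sample.

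**Figure D1:**
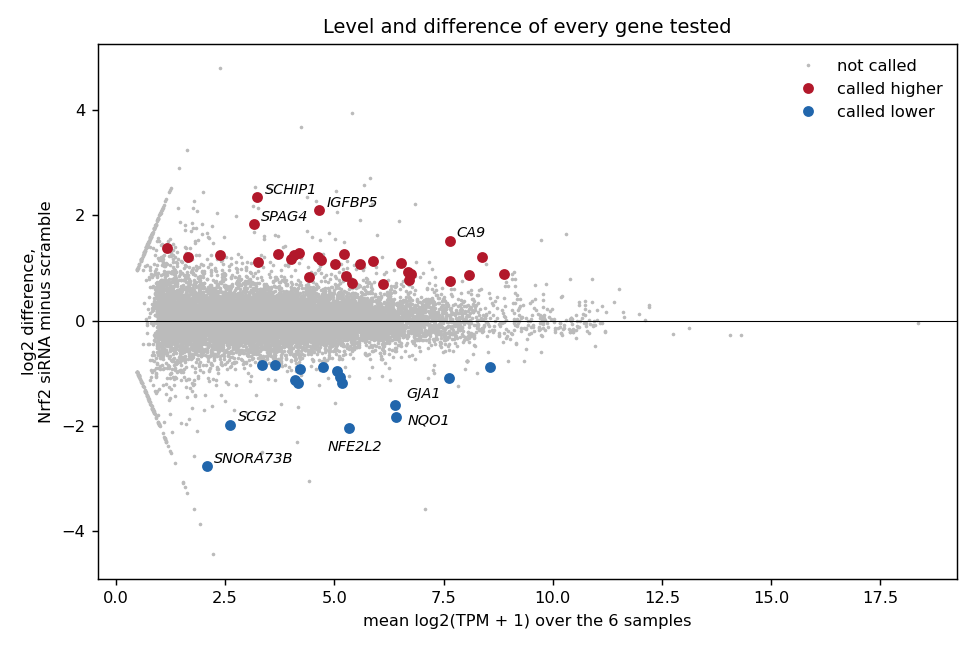
Level and difference of the 13867 genes tested: the horizontal axis is the mean log2(TPM + 1) over the 6 samples and the vertical axis the fitted log2 difference, Nrf2 siRNA minus scramble. Each point is a gene; the 30 genes called higher and the 16 called lower are coloured, and those with a difference of at least 1.5 are named, while many grey points with larger differences did not pass the test.

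Antioxidant response elements were looked for in the promoters of the NRF2 pathway genes, because this motif is where NRF2 binds. The letters searched were TGACNNNGC on both strands, in RefSeq windows (GRCh38.p14) from 250 bases before to 50 after the gene's start. Of 29 windows of tested pathway genes other than regulators, 8 held a match, as did 13.6% of all 27305 windows and 15.2% of the 9959 windows of tested genes. Among genes called lower, 2 of 14 windows held a match. The stretches of TXNRD1 (chr12:104215660-104215799, plus strand), GCLM (chr1:93909436-93909484, minus strand) and ME1 (chr6:83431022-83431208, minus strand) are shown because these textbook NRF2 targets differed in their values below; capitals mark each match, on either strand. The windows of NQO1, AKR1C3 and TKT held none of these letters. Sequence outside the windows was not searched, so this does not show that these genes lack an element.
TXNRD1: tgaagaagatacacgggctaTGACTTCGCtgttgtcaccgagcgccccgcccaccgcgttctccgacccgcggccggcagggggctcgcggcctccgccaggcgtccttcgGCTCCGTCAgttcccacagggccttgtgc
GCLM: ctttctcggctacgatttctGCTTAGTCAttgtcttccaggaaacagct
ME1: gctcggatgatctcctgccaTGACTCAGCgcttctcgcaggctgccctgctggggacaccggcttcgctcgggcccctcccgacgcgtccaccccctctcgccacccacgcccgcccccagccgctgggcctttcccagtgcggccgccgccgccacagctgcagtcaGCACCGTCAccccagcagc

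Of the 51 tested genes of the NRF2 pathway list, 4 fell (NFE2L2, NQO1, AKR1C3 and TXNRD1) and none rose, against 0.115% and 0.216% of all genes tested. The fitted difference was below 0 for 40 of the 51, and for 6614 of all 13867 genes, with a median of -0.19 log2 against 0.02 for all genes. The groups did not overlap for 19 in the lower and 3 in the higher direction, against 9.31% and 13.6% of all genes. The regulators other than NFE2L2 were not called. KEAP1 averaged 66.7 TPM in Nrf2 siRNA cells and 75.4 TPM in scramble (adjusted p = 0.711). MAFG, a small MAF partner, had a log2 difference of 0.10, and BACH1, the repressor that competes with NRF2 for its sites, one of -0.04.

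NQO1, the quinone reductase most often read as a measure of NRF2 activity, had 49.7, 40.3 and 43.5 TPM in Nrf2 siRNA samples, against 153, 166 and 163 TPM in scramble samples. Its mean was 27.7% of the scramble mean, the samples were far apart, and NQO1 fell by 1.83 log2 (SE 0.17, limma adjusted p = 0.000452), a call kept when any of the 6 samples was left out. AKR1C3, an aldo-keto reductase of steroids and carbonyls, had 23.4, 23.9 and 21.8 TPM in Nrf2 siRNA samples, against 54.0, 57.5 and 49.8 TPM in scramble, and fell by 1.19 log2 (limma adjusted p = 0.0195). AKR1C3 has near-identical neighbours in its family, so its reads may be divided among them. TRIM16L, a pathway member, had a mean at 42.6% of scramble (adjusted p = 0.0845) and MGST1, a microsomal glutathione transferase, at 56.9% (adjusted p = 0.151); neither passed. Of 16 tested genes of quinone and carbonyl reduction, conjugation and export, 11 had a fitted difference below 0, with a median of -0.43 log2. Samples were apart in the lower direction for 7 and in the higher for 2, against 9.31% and 13.6% of all genes tested. The 2 in the higher direction were ABCC1, a glutathione-conjugate pump (log2 difference 0.40, limma adjusted p = 0.536), and UGDH (0.33, limma adjusted p = 0.455).

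TXNRD1, the cytosolic thioredoxin reductase whose promoter is printed above, had 307, 246 and 284 TPM in Nrf2 siRNA samples, against 530, 514 and 497 TPM in scramble samples. It fell by 0.88 log2 (SE 0.14, limma adjusted p = 0.0228), to 54.3% of the scramble mean. Its partner thioredoxin (TXN) and the peroxiredoxin PRDX1 had log2 differences of -0.09 and -0.17 with overlapping samples. SRXN1, the sulfiredoxin that restores peroxiredoxins, had 38.1, 40.2 and 34.6 TPM in Nrf2 siRNA samples, against 46.3, 46.3 and 45.8 TPM in scramble. The SRXN1 samples did not overlap, and the difference did not pass (adjusted p = 0.478).

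Glutathione genes did not pass the test. GCLM, the modifier subunit of the enzyme that starts glutathione synthesis, had 8.32, 4.29 and 10.8 TPM in Nrf2 siRNA samples, against 11.8, 9.86 and 11 TPM in scramble. GCLC, its catalytic subunit, had a log2 difference of 0.10 and SLC7A11, the cystine importer, one of -0.19. In each of these the groups overlapped, as they did for HMOX1, the heme-degrading enzyme, at 6.88, 11.9 and 7.41 TPM in Nrf2 siRNA samples against 10.5, 8.65 and 13.3 TPM in scramble.

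The NADPH-producing enzymes had a median log2 difference of -0.40 over 6 genes, none of them called. TKT, the transketolase of the pentose phosphate pathway, had 229, 198 and 225 TPM in Nrf2 siRNA samples, against 390, 443 and 475 TPM in scramble. These groups are far apart, at 49.8% of the scramble mean, and the adjusted p was 0.222 in the fit, whose spread is shared with the other groups of the series (SE 0.33), and between 0.0127 and 0.489 over the alternatives. ME1, malic enzyme, had 18.2, 15.6 and 15.3 TPM in Nrf2 siRNA samples, against 26.2, 27.0 and 22 TPM in scramble (adjusted p = 0.162, between 0.0242 and 0.422 over the alternatives). Of the iron and heme genes, SLC48A1, a heme transporter, had the lowest adjusted p, at 61.6% of the scramble mean (adjusted p = 0.0700), and FTL, the ferritin light chain, was at 96.4%.

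**Figure D2:**
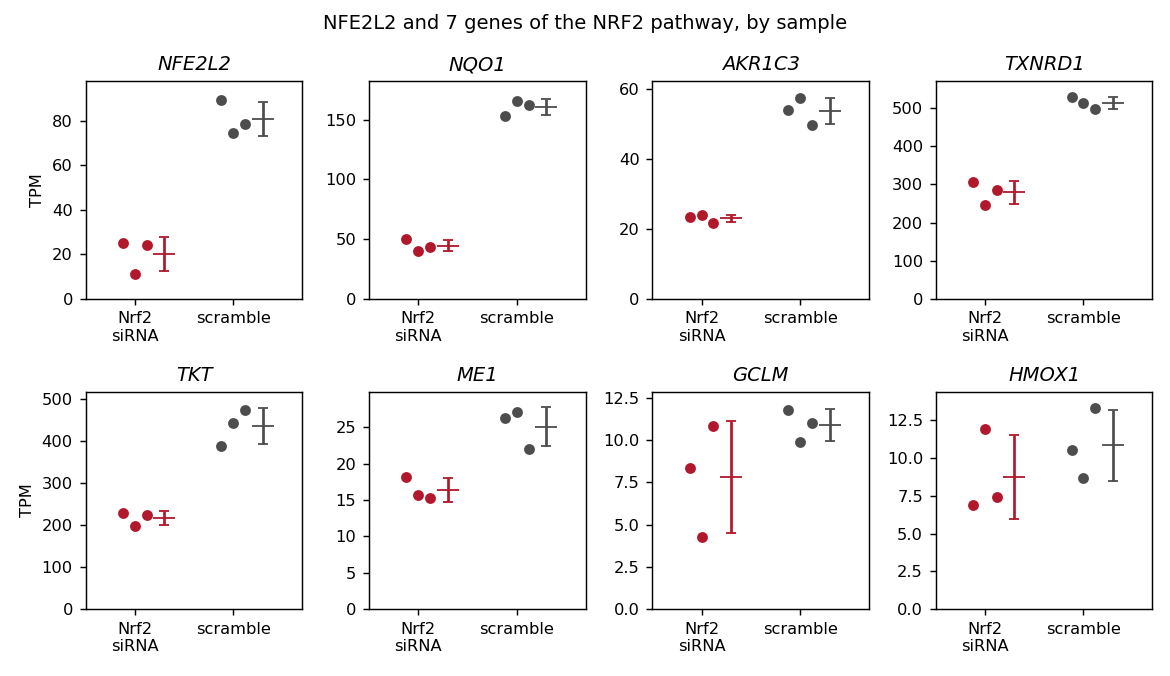
TPM of NFE2L2 and 7 genes of the NRF2 pathway in the 3 Nrf2 siRNA samples (left, red) and the 3 scramble samples (right, grey); each point is a biological sample and the bars beside the points are the mean ± SD. NQO1 lies between 40.3 and 49.7 TPM in Nrf2 siRNA samples and between 153 and 166 TPM in scramble samples, while the samples of GCLM and HMOX1 overlap.

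Genes that respond to low oxygen were the list with the most calls, among lists chosen with earlier results of these data known. HIF transcription factors, destroyed when oxygen is present by the EGLN hydroxylases and the VHL ligase, switch on genes for pH control, angiogenesis and glycolysis. Of 31 tested members 5 rose (SPAG4, CA9, PFKFB4, EGLN3 and DDIT4) and none fell. The median log2 difference was 0.36, and samples were apart in the higher direction for 18. Over all genes tested, 0.216% were called higher and 13.6% were apart in the higher direction. CA9, the cell-surface carbonic anhydrase, had 254, 442 and 338 TPM in Nrf2 siRNA samples, against 96.9, 127 and 130 TPM in scramble samples. Every Nrf2 siRNA sample exceeded every scramble sample, and CA9 rose by 1.51 log2 (SE 0.24, limma adjusted p = 0.0228).

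The core binding letters of HIF, ACGTG on either strand, stood in 8 of 18 promoter windows of tested HIF targets, against 21.6% of all windows and 27.0% of those of tested genes. These genes were listed as HIF targets, so the count describes the list. Among genes called higher, 4 of 22 windows held the letters. The CA9 stretch (chr9:35673890-35673934, plus strand) is shown because CA9 had the highest level of the 5 hypoxia genes that rose. The DDIT4 window held a match too, and those of EGLN3 and PFKFB4 held none.
CA9: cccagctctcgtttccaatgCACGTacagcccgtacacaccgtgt

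EGLN3, an oxygen-sensing hydroxylase that is itself induced by HIF, had 4.12, 3.71 and 3.38 TPM in Nrf2 siRNA samples, against 1.01, 0.97 and 1.22 TPM in scramble samples. EGLN3 rose by 1.20 log2 (limma adjusted p = 0.0351), on a scale that understates changes of genes this low. DDIT4, an inhibitor of mTORC1 signalling, had 38.7, 58.2 and 44.1 TPM in Nrf2 siRNA samples, against 19.7, 21.3 and 23.3 TPM in scramble (log2 difference 1.08, limma adjusted p = 0.0239). PFKFB4, which sets the level of a glycolytic activator, had 12.9, 29.5 and 19.1 TPM in Nrf2 siRNA samples, against 7.13, 7.33 and 8.09 TPM in scramble (log2 difference 1.26, limma adjusted p = 0.0467). VEGFA, the angiogenic growth factor, had 49.2, 52.8 and 38.3 TPM in Nrf2 siRNA samples, against 31.5, 18.2 and 24.6 TPM in scramble, with samples apart and an adjusted p of 0.0961. Among the regulators, HIF1A had a log2 difference of -0.15, EPAS1 one of -0.07 and VHL one of -0.34, and none of these was called.

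Glycolytic enzymes lay on the higher side, without a call in the fit of all 12 samples. Of 17 tested members, 15 had a positive fitted difference and 13 had samples apart in the higher direction, with a median log2 difference of 0.35. Over all genes tested, 7253 of 13867 had a positive difference and 13.6% were apart in the higher direction. LDHA, which makes lactate, had 2311, 2649 and 2578 TPM in Nrf2 siRNA samples, against 1445, 1404 and 1484 TPM in scramble samples. The ranges did not meet, and the log2 difference of 0.80 had a limma adjusted p of 0.149. LDHA passed at nearly the same difference in 6 other fits, with adjusted p of 0.0406, 0.015 and 0.0196 under the 3 rescalings, 0.0357 in the 6 samples alone, 0.0118 without the double siRNA samples and 0.00601 with sample weights, and it did not pass without any 1 of the 6 samples (0.186 to 0.417). LDHB, the form of the enzyme that favours pyruvate, had a log2 difference of -0.23 (adjusted p = 0.711).

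**Figure D3:**
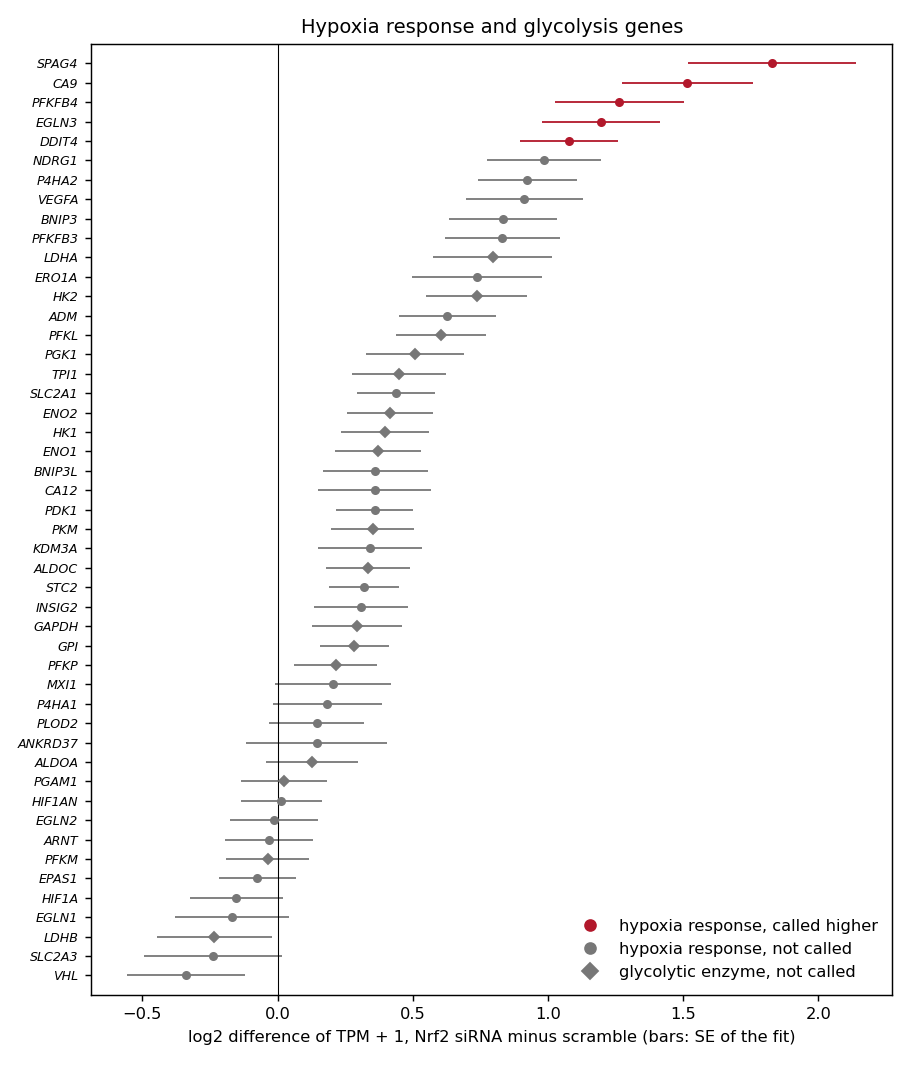
Log2 difference of TPM + 1, Nrf2 siRNA minus scramble, for each tested member of the hypoxia response list (circles) and of the glycolysis list (diamonds); bars are the standard error of the fit over 12 samples. The 5 red circles passed the test, from DDIT4 at 1.08 to SPAG4 at 1.83, and most other members lie to the right of 0 without passing.

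Of 32 tested members of the mesenchymal and matrix list 3 rose (MMP2, LOX and THBS1), none fell, and the median log2 difference was 0.24. Among all genes tested 0.216% were called higher and 0.115% lower. MMP2, gelatinase A, had 93.3, 84.2 and 80.4 TPM in Nrf2 siRNA samples, against 40.1, 35.2 and 41.0 TPM in scramble samples. MMP2 rose by 1.13 log2 (SE 0.13, limma adjusted p = 0.00202) and was called with any of the 6 samples left out. LOX, which crosslinks collagen and elastin, had 584, 715 and 618 TPM in Nrf2 siRNA samples, against 396, 334 and 310 TPM in scramble samples (log2 difference 0.88, limma adjusted p = 0.0305). THBS1, the matricellular protein thrombospondin, had 280, 256 and 247 TPM in Nrf2 siRNA samples, against 162, 163 and 141 TPM in scramble (log2 difference 0.75, limma adjusted p = 0.0349). FN1, fibronectin, was apart in the samples but not called (log2 difference 0.74, adjusted p = 0.200, between 0.0146 and 0.468 over the alternatives).

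Markers of an epithelial to mesenchymal change did not pass. VIM, vimentin, averaged 5129 TPM in Nrf2 siRNA cells and 4297 TPM in scramble (adjusted p = 0.650), and ZEB1, a repressor of epithelial genes, had a log2 difference of 0.31 (adjusted p = 0.504). CDH1, E-cadherin, and SNAI1 were at most 0.47 TPM in any of the 6 samples and were not tested. On the epithelial list 1 of 15 tested members fell, against 0.115% of all genes tested. The list's median log2 difference was -0.15, and it was -0.06 without Nrf2 siRNA replicate 2 and -0.27 without scramble replicate 2. The member that fell was GJA1, the gap junction protein connexin 43. It had 66.4, 33.3 and 47.7 TPM in Nrf2 siRNA samples, against 167, 131 and 141 TPM in scramble samples. GJA1 fell by 1.60 log2 (SE 0.26, limma adjusted p = 0.0228). Beyond the lists, PLOD1, a lysyl hydroxylase of collagen (142 ± 17 TPM in Nrf2 siRNA cells and 74.6 ± 5.8 TPM in scramble, SD, n = 3 each, limma adjusted p = 0.0228), and P3H1, a prolyl hydroxylase of collagen (limma adjusted p = 0.0305), rose. The integrin subunit ITGB5 rose by 0.86 log2 and ITGB8 fell by 0.85.

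IGFBP5, a binding protein of insulin-like growth factors, had the lowest adjusted p of all genes. It had 53.5, 42.5 and 57.8 TPM in Nrf2 siRNA samples, against 10.9, 12.2 and 10.4 TPM in scramble samples. The rise was 2.09 log2 (SE 0.15, limma adjusted p = 4.51e-05), and it was called in all 6 fits without a sample. IGFBP3, another binding protein, was at 180.6% of the scramble mean and did not pass (adjusted p = 0.0845), and the list's 10 tested members had a median log2 difference of 0.30.

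SCHIP1, a cytoskeletal adaptor, had the largest rise among the called genes, with 16.5, 15.3 and 32.4 TPM in Nrf2 siRNA samples, against 2.63, 3.69 and 3.31 TPM in scramble samples (log2 difference 2.34, limma adjusted p = 0.00202). SCG2, a secretogranin of secretory granules, had 1.74, 2.61 and 1.98 TPM in Nrf2 siRNA samples, against 13.3, 9.66 and 10.9 TPM in scramble, and fell by 1.98 log2 (limma adjusted p = 0.00143). Both groups of samples were well apart for each gene. SNORA73B, a small nucleolar RNA, had 3.29 TPM in Nrf2 siRNA replicate 1 and was listed at 0 in the others, against 11.2, 11.3 and 7.95 TPM in scramble; a library selected for polyadenylated RNA measures such RNAs poorly. Further genes that fell were APIP, an enzyme of methionine salvage (a mean at 42.3% of scramble), TRIM47, ECHDC1, DCTN5, AVPI1 and PALMD. Other genes that rose were FGF1, a fibroblast growth factor (25.2 ± 4.1 TPM in Nrf2 siRNA cells and 10.1 ± 1.1 TPM in scramble, SD, n = 3 each), BACE2, PTPRB, GLIPR1, KLF7, YBX3, SELENON, SLC25A23, SRPRA, ABCB5, ZNF407-AS1 and H2BC12, a histone gene whose reads may be shared with near-identical copies.

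Genes of the TCA cycle and of mitophagy and autophagy gave a call each. IDH2, the mitochondrial NADPH-producing isocitrate dehydrogenase, had 24.7, 18.8 and 27.3 TPM in Nrf2 siRNA samples, against 52.5, 45.6 and 51.4 TPM in scramble samples, and fell by 1.06 log2 (SE 0.16, limma adjusted p = 0.0228). It was the only call among 18 tested TCA cycle genes, against 0.115% of all genes tested called lower. LAMTOR1, which anchors mTORC1 control at the lysosome, had 157, 118 and 127 TPM in Nrf2 siRNA samples, against 274, 276 and 307 TPM in scramble, and fell by 1.09 log2 (limma adjusted p = 0.0182). It was the only call among 31 tested mitophagy and autophagy genes, against the same share of all genes tested. None of the 76 respiratory chain genes was called. The fitted difference was below 0 for 67 of them, and for 6614 of all 13867 genes tested, and the list's median was -0.21 log2. By sample, the list's median difference from the scramble mean was 0.015, -0.437 and -0.148 in Nrf2 siRNA replicates 1, 2 and 3. Leaving out Nrf2 siRNA replicate 1 gave a median of -0.32, leaving out replicate 2 gave -0.09 and leaving out scramble replicate 3 gave -0.13. The 11 mitochondrial antioxidant genes had no call and a median of -0.19, which was -0.12 without Nrf2 siRNA replicate 2 and -0.30 and -0.03 without scramble replicates 1 and 3; TXNRD2, the mitochondrial thioredoxin reductase, had a log2 difference of -0.08.

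Of 19 tested genes of the retinal pigment epithelium list 2 rose, both of melanin synthesis, and none fell, against 0.216% and 0.115% of all genes tested. The list's median log2 difference was 0.28. TYR, the tyrosinase that starts melanin synthesis, had 3.19, 2.65 and 2.10 TPM in Nrf2 siRNA samples, against 0.195, 0.545 and 0.465 TPM in scramble samples (log2 difference 1.38, limma adjusted p = 0.0228). TYRP1, which acts after it, had 24.6, 23.9 and 21.1 TPM in Nrf2 siRNA samples, against 9.77, 8.29 and 11.7 TPM in scramble (log2 difference 1.16, limma adjusted p = 0.0239). The samples were apart for both genes. TYR was under 1 TPM in every scramble sample and passed the filter only through the Nrf2 siRNA samples. MITF and OTX2, regulators of pigment cells, had differences of 0.13 and 0.21. CP, the copper-carrying ferroxidase ceruloplasmin, had 25.9, 26.4 and 29.8 TPM in Nrf2 siRNA samples, against 14.3, 9.02 and 9.36 TPM in scramble, and rose by 1.28 log2 (limma adjusted p = 0.0228).

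Interferon-stimulated genes had the highest list median and the widest spread between samples. Interferons act through transcription factors, among them STAT2 and IRF9, that bind interferon-stimulated response elements and switch on antiviral genes. The element's letters (a GAAA pair with 2 free bases between), on either strand, were found in 30 of 49 promoter windows of tested members other than interferons and receptors, against 3.65% of all windows and 2.66% of those of tested genes. Among all genes called higher, 2 of 22 windows held them. Windows are shown for GBP1 (chr1:89065306-89065355, minus strand), the list's call, and for IFIT1 (chr10:89392487-89392549, plus strand), ISG15 (chr1:1013364-1013419, plus strand) and BST2 (chr19:17405725-17405780, minus strand), whose values spanned a wide range between samples; capitals mark matches, which overlap in ISG15 and BST2.
GBP1: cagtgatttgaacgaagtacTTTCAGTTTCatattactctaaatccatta
IFIT1: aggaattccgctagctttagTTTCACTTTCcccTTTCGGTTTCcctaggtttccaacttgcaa
ISG15: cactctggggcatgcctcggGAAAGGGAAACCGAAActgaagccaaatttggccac
BST2: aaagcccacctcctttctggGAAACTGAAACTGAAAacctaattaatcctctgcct

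Of 69 tested members of the interferon list 1 rose, GBP1, and none fell, against 0.216% and 0.115% of all genes tested. A positive fitted difference was found for 64, and 33 had samples apart in the higher direction. Over all genes tested, 7253 of 13867 had a positive difference and 13.6% were apart in the higher direction. The list's median log2 difference was 1.06, and it was 0.67 without Nrf2 siRNA replicate 2 and 0.69 without scramble replicate 1. GBP1, a guanylate-binding protein of cell-autonomous defence, had 45.7, 72.2 and 55.6 TPM in Nrf2 siRNA samples, against 18.1, 25.6 and 27.1 TPM in scramble samples (log2 difference 1.25, SE 0.23, limma adjusted p = 0.0351), a call lost whichever of the 6 samples was left out. ISG15, a ubiquitin-like modifier, had 114, 578 and 222 TPM in Nrf2 siRNA samples, against 12.5, 99.8 and 111 TPM in scramble. Nrf2 siRNA replicate 2 was the highest and scramble replicate 1 the lowest of the 6, and the log2 difference of 2.21 had an SE of 0.75 and an adjusted p of 0.232.

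The same 2 samples were the extremes for MX1, an antiviral GTPase, at 33.4, 187 and 69.3 TPM in Nrf2 siRNA samples against 3.08, 25.2 and 24.7 TPM in scramble (adjusted p = 0.208). IFIT1, which binds foreign RNA, overlapped between groups, at 80.2, 353 and 170 TPM in Nrf2 siRNA samples against 12.8, 88.0 and 79.2 TPM in scramble (adjusted p = 0.295). BST2, which tethers budding virus, had 72.2, 317 and 130 TPM in Nrf2 siRNA samples against 5.63, 48.4 and 32.5 TPM in scramble (adjusted p = 0.111). Large differences between replicates thus stood beside large differences between groups. In both groups replicate 1 had the lowest interferon list median and replicate 2 the highest. As differences from the scramble mean, replicates 1, 2 and 3 had 0.425, 1.67 and 0.893 log2 in Nrf2 siRNA and -0.562, 0.377 and 0.244 in scramble. IRF9 had a log2 difference of 0.77 (adjusted p = 0.191), IFI6 one of 1.63 (adjusted p = 0.232) and HLA-B one of 0.92 (adjusted p = 0.208), the last with reads that can be shared among class I genes. STAT2 came closest to the threshold after GBP1, with samples apart and an adjusted p of 0.0526. CD68, a macrophage marker, had 42.3, 105 and 52.7 TPM in Nrf2 siRNA samples against 19.2, 33.8 and 37.9 TPM in scramble, with its extremes in the same 2 samples; of the other 9 blood markers PTPRC was at most 0.265 TPM in the Nrf2 siRNA samples and 8 were not analysed here. Whether other cells had a part in the interferon values was not tested.

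Complement genes held 1 call, higher, among 13 tested members, against 0.216% of all genes tested. The list's median log2 difference was 0.44. C1R, a protease of the classical pathway, had 408, 594 and 531 TPM in Nrf2 siRNA samples, against 191, 240 and 225 TPM in scramble samples, and rose by 1.21 log2 (SE 0.19, limma adjusted p = 0.0228). C1S, its partner protease, had a log2 difference of 0.98 (adjusted p = 0.0526) and C3 one of 1.03 (adjusted p = 0.131), each with samples apart. Cytokine and NF-kB genes had no call among 13 tested members; CCL2, a monocyte chemokine, had 58.9, 27.8 and 31.4 TPM in Nrf2 siRNA samples, against 95.8, 60.3 and 88.3 TPM in scramble (adjusted p = 0.145).

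The remaining lists gave no call in either direction. Their median log2 differences were -0.16 over 44 cell cycle genes, -0.18 over 25 cholesterol synthesis genes, -0.09 over 68 cytosolic ribosomal protein genes, 0.08 over 17 TGF-beta pathway genes, 0.05 over 17 integrated stress response genes and 0.02 over 19 p53 and apoptosis genes. These medians were small and moved with single samples. The ribosomal protein median was 0.09, of opposite sign, without Nrf2 siRNA replicate 2, -0.24 without replicate 1, and -0.16 and -0.02 without scramble replicates 2 and 3. The cholesterol median was -0.28 without Nrf2 siRNA replicate 1 and -0.09 without replicate 2. The TGF-beta median was 0.14 without Nrf2 siRNA replicate 2 and 0.17 without scramble replicate 1, and the integrated stress response median was 0.13 without Nrf2 siRNA replicate 1. The p53 and apoptosis median lay between -0.03 and 0.03 without any 1 of the 6 samples and took no steady sign, below 0 without Nrf2 siRNA replicate 1 or any 1 of the scramble replicates. In the cell cycle list 14 of 44 genes had samples apart in the lower direction and 3 in the higher, against 9.31% and 13.6% of all genes tested. BAX and BCL2, which promote and block apoptosis, had log2 differences of 0.00 and 0.02.

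**Figure D4:**
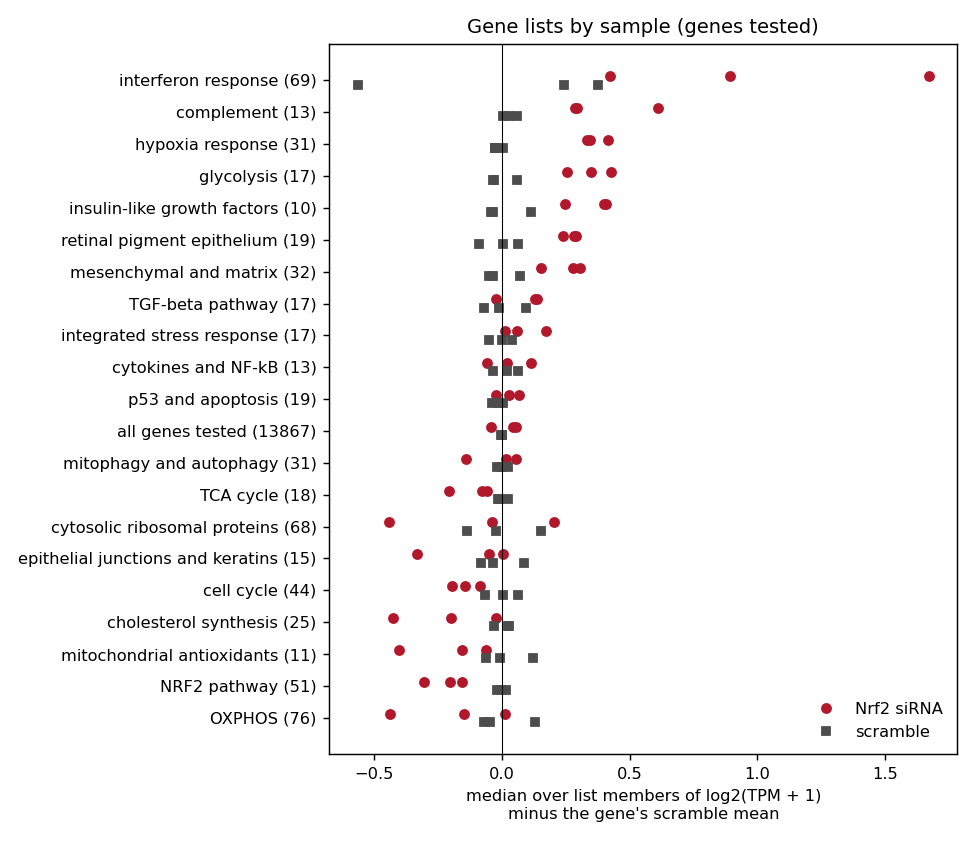
Median over the tested members of each list (number in brackets) of log2(TPM + 1) minus the gene's scramble mean, for the 3 Nrf2 siRNA samples (red circles) and the 3 scramble samples (grey squares). Interferon medians spread from 0.43 to 1.67 in Nrf2 siRNA samples and from -0.56 to 0.38 in scramble samples, while the NRF2 pathway, hypoxia and glycolysis medians have little spread and the groups lie apart.

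Nrf2 siRNA was also compared in cells that had Pink1 siRNA in common: the double siRNA group against Pink1 siRNA, samples that enter neither group mean of the comparison above. Whether its sequence and dose matched those of the Nrf2 siRNA group is not given. The double and Pink1 siRNA samples do share the fit's estimate of the spread and so bore on which 46 genes were called. Without the double siRNA samples 165 were called, all 46 among them. In these samples 6 of the 13867 genes were called, 3 higher (0.0216%) and 3 lower (0.0216%), and 4 of the 6 were among the 46: MMP2 and IGFBP5, higher in both, and NQO1 and SCG2, lower in both. BCAT1 and ITGBL1 were called here alone. NFE2L2 had 22.2, 30.1 and 34.4 TPM in double siRNA samples, against 64.1, 70.4 and 71.6 TPM in Pink1 siRNA samples (log2 difference -1.24, limma adjusted p = 0.157). NQO1 had 46.6, 61.9 and 72.4 TPM in double siRNA samples, against 150.3, 191 and 179.5 TPM in Pink1 siRNA samples, and fell by 1.52 log2 (limma adjusted p = 0.00758). MMP2 had 70.9, 63.2 and 64.6 TPM in double siRNA samples, against 30.7, 34.2 and 33.1 TPM in Pink1 siRNA samples, a rise of 0.998 log2 (limma adjusted p = 0.0196) next to 1.13 between Nrf2 siRNA and scramble.

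Of the 46 genes, 41 had a fitted difference of the same sign in the double against Pink1 comparison, as did 54.5% of all genes tested. Samples were apart in the same direction for 33 of the 46; over all genes tested, double and Pink1 siRNA samples were apart for 3.21% in the higher and 5.62% in the lower direction. As a description across genes, which are not independent replicates, Pearson's r of the paired differences was 0.83 among the 46 and 0.18 over all genes tested. Choosing the 46 for large differences in the comparison without Pink1 siRNA can itself raise r, so these r values cannot be compared directly. The median ratio of the difference with Pink1 siRNA to that without it was 0.55 among the 46, which were chosen for their size in the comparison without it.

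The 5 genes of the opposite sign were ABCB5, CP, TYRP1, SRPRA and ZNF407-AS1, and for CP and TYRP1 the samples were apart in opposite directions. CP had 14.2, 23.8 and 22.3 TPM in double siRNA samples, against 37.4, 31.5 and 36.1 TPM in Pink1 siRNA samples. TYRP1 had 24.4, 20.8 and 34.5 TPM in double siRNA samples, against 40.0, 43.6 and 53 TPM in Pink1 siRNA samples. So both genes were higher with Nrf2 siRNA in cells without Pink1 siRNA and lower with it in cells that had Pink1 siRNA. The 8 tested melanin and melanosome genes, TYRP1 among them, had median log2 differences of 0.40 and -0.49 in these comparisons. TYR, the other called melanin gene, kept its sign. Limma's test of the difference between the comparisons called 0 of 13867 genes (0.0%); 764 (5.51%) had an unadjusted p under 0.05, and the smallest adjusted p, that of CP and TYRP1, was 0.055. SCHIP1 had 2.86, 4.005 and 5.21 TPM in double siRNA samples, against 3.87, 3.32 and 3.05 TPM in Pink1 siRNA samples, so its 2.34 log2 rise had no counterpart of that size there (0.17 log2; test of the difference, adjusted p = 0.208).

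**Figure D5:**
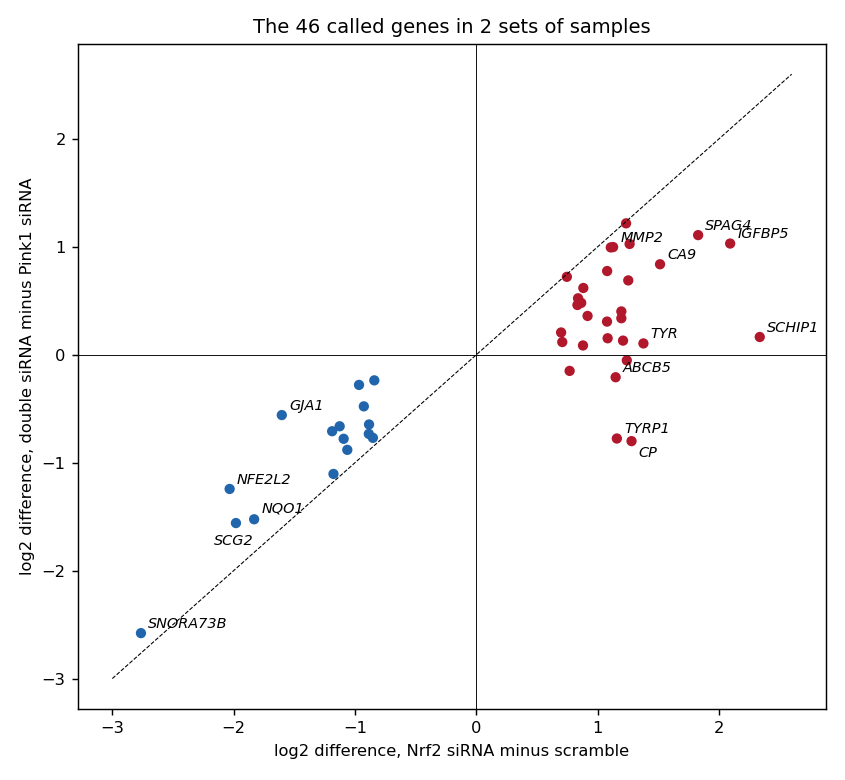
Log2 difference of the 46 called genes between Nrf2 siRNA and scramble (horizontal axis) and between double siRNA and Pink1 siRNA (vertical axis); red genes were called higher and blue genes lower in the comparison on the horizontal axis, and the dashed line marks equal differences. Of the points, 41 lie in the quadrants of equal sign, most of them nearer 0 on the vertical axis, and CP and TYRP1 lie below 0 on it.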

How the data were processed

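RNA-seq of 12 biological ARPE-19 samples (3 in each of 4 groups, 2 technical replicates each) was used. Per the labels' protocols, polyadenylated RNA went into stranded libraries and was read in pairs. The authors deposited TPM values per gene; STAR, RSEM, edgeR and the builds GRCh37 and hg19 are named in the submitters' processing notes without role or version. TPM keeps no depth, so no counting error can be given. Technical pairs were averaged and genes that averaged 1 TPM or more in the 6 compared samples kept. log2(TPM + 1) of all 12 samples was fitted with limma 3.58.1 (R 4.3.3; 4 group means, eBayes with trend, 8 residual degrees of freedom), with Benjamini-Hochberg adjustment over 13867 genes. An exact permutation test of 3 against 3 was not used, since it cannot go below the threshold. A fold change on this scale understates low genes. The script was tested on simulated data. Of the identifiers, 22789 matched the name table. The named genes are NFE2L2, the 15 called genes of at least 5 TPM with the largest change in each direction, up to 4 called members of each of 21 lists (2 abundant members where none was called), and a set of pathway genes; other genes are named after their values were seen. Some genes of these sets are not reported here. The members and lists were chosen with earlier results of these data known. Alternatives were other pseudocounts, filters, scalings, sample weights, sample sets, technical replicates, the replicate block and leaving out each sample. Promoter windows are from RefSeq (GRCh38.p14).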

Additional observations from a re-analysis of the deposited data

Results flagged for a closer look

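For 3 of the named genes every Nrf2 siRNA sample was above every scramble sample while every double siRNA sample was below every Pink1 siRNA sample, and in the interaction test none of the 3 passed the adjusted threshold. The difference between the comparisons, double minus Pink1 siRNA set against Nrf2 siRNA minus scramble, was -2.08 log2 for CP (SE 0.29, limma adjusted p = 0.055) and -1.93 log2 for TYRP1 (SE 0.27, limma adjusted p = 0.055). For CCND1, cyclin D1, it was -0.445 log2 (SE 0.18, limma adjusted p = 0.872); CCND1 had 218, 273 and 239 TPM in Nrf2 siRNA samples, against 191, 205 and 190 TPM in scramble samples, and 231, 234 and 247 TPM in double siRNA samples, against 255, 251 and 277 TPM in Pink1 siRNA samples. The cause was not tested.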

How the results depend on the processing

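The 46 calls between Nrf2 siRNA and scramble became 149 with median-of-ratios rescaling (86 higher and 63 lower, 57.7% higher against 65.2% in the fit described), 188 with quantile normalization, 131 with ENSG00000226958 removed, 165 without the double siRNA samples and 551 with sample weights; the cause was not tested. All 46 were among the calls of the 149, the 188 and the 165, and 45 among the 131. Leaving out 1 sample gave 6 to 26 calls, with fewer samples in the fit: 26, 9 and 8 without Nrf2 siRNA replicates 1, 2 and 3, and 10, 8 and 6 without scramble replicates 1, 2 and 3. NFE2L2 ranged between -2.23 and -1.68 log2 without 1 sample, and lost its call in 2 of the 6 fits. The 6 calls between double and Pink1 siRNA became 18, 25 and 21 under the same 3 rescalings, 201 with sample weights, 0 in the compared groups alone, 1 with technical replicate 1 alone, and 0 to 16 without 1 sample. The 0 calls of the interaction became 3 with a minimum mean of 5 TPM, 2 under each of the 3 rescalings, 19 with sample weights and 0 to 4 without 1 sample. Over 4942 well expressed genes, same-numbered Nrf2 siRNA and scramble samples were not steadily alike (r of their deviations 0.195, 0.1316 and -0.1491). The interferon list did order the replicates alike in these groups, so a pairing by replicate number cannot be set aside for it. With the replicate block there were 35 calls between Nrf2 siRNA and scramble, 1 between double and Pink1 siRNA and 0 for the interaction. No called direction was reversed among 1553 alternative values of 82 named genes; 38 values of 17 genes took the opposite sign, none called on either side, and 6 genes not called passed in some alternative, LDHA in 6. TPM hides depth, so the precision of low genes is unknown.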
